A study of Mus musculus with 8 samples.

Results

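The insulin receptor, its substrates, the kinases PI3K and AKT and the FoxO transcription factors were examined as a set of 9 genes in mouse tendon stem cells (TSCs). They were Insr, Irs1, Irs2, Pik3r1, Pik3ca, Akt1, Akt2, Foxo1 and Foxo3, each taken as the row with that symbol among the 19301 genes listed, and all 9 were expressed highly enough to be tested. The RNA-seq compared primary TSCs kept for 4 days in HFHG medium (high glucose with palmitic acid, a saturated fatty acid) with TSCs kept in low glucose (LG) medium, with 4 biological replicates in each group. TSCs were isolated from the mouse patellar ligament by collagenase digestion, the mice of the study were C57BL/6J, and no genetic change is described for these cells. In the culture model of the study, the LG medium held DMSO in place of palmitic acid, so the parts of glucose and of palmitic acid in any difference cannot be told apart. The age of the mice behind these libraries, and whether cells of several mice were pooled, are not given in the sources used here. The medium was meant to imitate the high blood glucose and fat of diabetes, and the question asked here is whether the mRNA levels of the insulin pathway differed between the media.

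Insulin binds its receptor, a tyrosine kinase that phosphorylates the docking proteins IRS1 and IRS2. Phosphorylated IRS recruits PI3K, a pair of a regulatory and a catalytic subunit that makes a membrane lipid to which AKT binds. AKT in turn phosphorylates FoxO factors, which then leave the nucleus, so FoxO target genes are switched on when the signal is low. Most of this regulation acts on proteins, and the libraries measured mRNA only.

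FoxO factors bind the core sequence TGTTTAC. Foxo1, the member with the largest difference, and Akt1, the only member called lower in the main comparison, were the genes for which the 250 bases before the start are shown, so that the presence of this sequence can be read next to their values. Both come from RefSeq on GRCm38.p6 and are written 5′ to 3′ on the strand of the gene, with TGTTTAC in capitals where it occurs. The Foxo1 stretch is chr3:52268087-52268336 on the plus strand, and the Akt1 stretch, before the first listed start of this gene, is chr12:112674885-112675134 on the minus strand.
Foxo1: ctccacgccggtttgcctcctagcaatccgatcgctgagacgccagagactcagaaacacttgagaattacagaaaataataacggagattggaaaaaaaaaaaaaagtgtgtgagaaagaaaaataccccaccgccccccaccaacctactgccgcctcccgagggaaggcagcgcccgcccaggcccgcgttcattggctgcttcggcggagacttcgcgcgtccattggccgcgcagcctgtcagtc
Akt1: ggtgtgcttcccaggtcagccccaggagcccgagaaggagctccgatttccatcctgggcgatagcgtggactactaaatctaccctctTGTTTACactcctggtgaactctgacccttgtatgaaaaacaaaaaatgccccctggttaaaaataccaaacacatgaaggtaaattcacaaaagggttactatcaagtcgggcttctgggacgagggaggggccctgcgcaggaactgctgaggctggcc
TGTTTAC was searched on both strands. It occurred once in the Akt1 stretch shown, 161 bases before the start, and not in the Foxo1 stretch. The other stretch listed for Akt1 (chr12:112674277-112674526, not shown) did not hold it. Of 13 such promoters listed for 8 of the members, the Akt1 stretch shown was the only match, and Insr had no entry. Of all 32851 promoters of this length, 3.17% held the sequence, and of the 9376 tested genes with a promoter, 2.59% did. A match here is a description of letters and not of a bound site.

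The authors deposited FPKM, fragments of a gene scaled by gene length and by a read total of that library. The whole reads behind the FPKM could be recovered for 19300 of the 19301 genes, and the totals were 35385644 to 37362725 reads in the HFHG libraries and 34308108 to 36308533 in the LG libraries. Reads on the listed genes made up 99.82% to 99.85% of these totals, so the totals need not equal all mapped reads. The members were covered by between 557 reads (Irs2) and 15166 reads (Akt1) in a library. The main principal component (81.0% of the variance) separated the media, and the next (4.18%) set LG replicate 4 apart, without which the calls of the 9 genes were as with it except for Pik3ca (log2 fold change 0.088, adjusted p = 0.0862). The tendon markers Scx (2.27 ± 0.558 FPKM in HFHG and 1.45 ± 0.336 in LG, mean ± SD, n = 4) and Mkx (6.73 ± 0.536 and 8.62 ± 0.691) were present. Of 13 TSC markers, 11 were higher and 2 lower in HFHG. Macrophage markers were also present, mostly Lyz2, and summed to 1740 to 1787 FPKM in HFHG and 1916 to 2001 FPKM in LG. Of 11 macrophage markers 10 were tested, of which 9 were lower in HFHG and 0 higher (0 by limma at an unadjusted p below 0.05 and 0 by voom), and Cd163 was below 0.5 FPKM. Of the endothelial markers 2 of 6 could be tested, 1 of them higher and 1 lower, and Pecam1, Cdh5, Kdr and Tie1 were below 0.5 FPKM. Of 6 adipocyte markers 5 were listed, all below 0.5 FPKM, of the muscle markers only Acta1 could be tested and was lower in HFHG, and the 1 testable cartilage marker did not pass. The part of these shifts in the results on the members was not tested, and in bulk RNA fewer cells of a type and less RNA per cell cannot be told apart.

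In HFHG, 5 of the 9 genes were higher and Akt1 was lower, while Insr, Irs1 and Irs2 did not pass the test. Foxo1 rose 1.94-fold and Foxo3 1.42-fold, Pik3r1, Akt2 and Pik3ca rose by 7.52% to 19.0%, and Akt1 fell by 17.2%. Log2(FPKM + 0.1) was compared with limma across 11710 genes with at least 0.5 FPKM in at least 4 libraries, a gene was called at a Benjamini-Hochberg adjusted p-value below 0.05, and all log2 fold changes are on this scale, as HFHG minus LG. By this rule 34% of all tested genes were higher in HFHG and 30.8% were lower, so being called was common in this comparison. With median-ratio scaling or with voom on the recovered reads, 3 of the 9 were called higher, because Pik3ca and Akt2 were not, and with quantile normalization Irs1 was called lower beside Akt1. The 4 HFHG values lay above the 4 LG values for the same 5 genes, as for 31.1% of tested genes, and below them for Akt1, as for 28.1%. At the threshold of the study's methods, more than a 2-fold change and p below 0.05 without adjustment, 0 members passed by limma and 0 by voom, against 3.68% of tested genes upwards and 1.65% downwards. With the FPKM rescaled to the same sum, Foxo1 passed that fold, at a log2 fold change of 1.02.

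**Figure D1:**
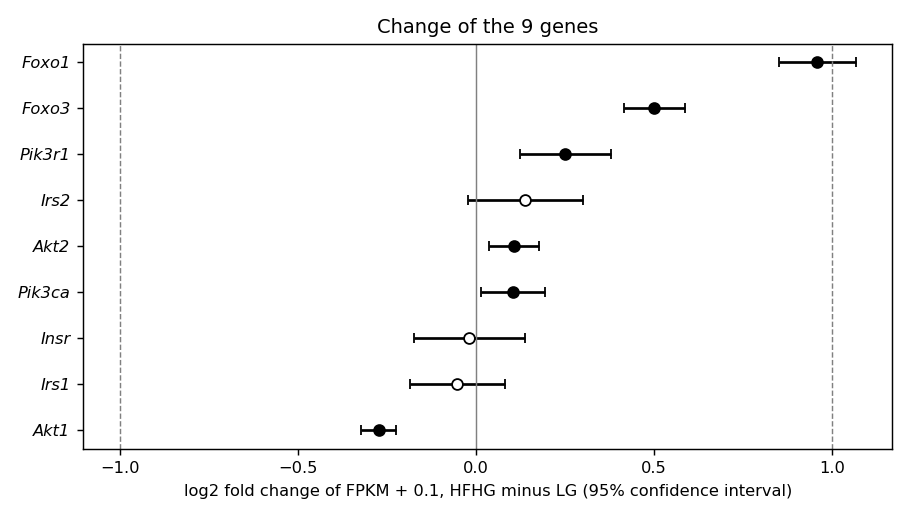
Log2 fold change of FPKM + 0.1 (HFHG minus LG, horizontal axis) for each of the 9 genes, with 95% confidence intervals from limma over 4 libraries a group, filled points for an adjusted p-value below 0.05, and dashed lines at a 2-fold difference. Foxo1 (0.96) and Foxo3 (0.50) lie farthest to the right, Akt1 (-0.27) is the only filled point left of 0, and the intervals of Insr, Irs1 and Irs2 cross 0.

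The receptor and its substrates did not pass the main test, though the estimate for Irs2 (10.1% higher) was above those for Pik3ca (7.52%) and Akt2 (7.80%). Insr (NCBI gene 16337, chr8:3122061-3279617 on GRCm38, minus strand), the receptor, was at 6.01, 5.77, 5.22 and 6.0 FPKM in HFHG replicates 1 to 4 and at 6.08, 6.34, 5.74 and 5.18 FPKM in LG. The groups overlapped, with the lowest HFHG value in replicate 3 and the lowest LG value in replicate 4. The log2 fold change was -0.018 (95% confidence interval -0.17 to 0.14, adjusted p = 0.835), and its sign turned when the FPKM were rescaled to the same sum (0.040). The spread of Insr between replicates, a coefficient of variation of 6.44% in HFHG and 8.64% in LG, was above the 2.26% that its read counts alone would give. Not all members were like Insr in this. In HFHG the spread of Irs1, Irs2, Pik3ca, Akt1 and Akt2 was below that of their read counts. It was 0.675% against 0.854% for Akt1 and 0.429% against 1.47% for Akt2. These read-count values use the mean reads of all 8 libraries. In LG the spread of every member was above its value. For Foxo1 (3.05% against 2.79%) this does not hold for its LG reads alone. Those were 825 to 903 per library, against 1640 to 1841 in HFHG.

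Irs1 (NCBI gene 16367, chr1:82233101-82291416, minus strand), the docking protein for many growth factor receptors, was at 3.27, 3.36, 3.51 and 3.36 FPKM in HFHG and at 3.65, 3.46, 3.57 and 3.34 FPKM in LG. These ranges overlapped as well. Its log2 fold change was -0.052 (95% interval -0.18 to 0.081, adjusted p = 0.473). The call depended on the scaling, since quantile normalization gave -0.14 with an adjusted p of 0.0466 and rescaling to the same sum gave 0.0058. Irs2 (NCBI gene 384783, chr8:10984681-11008458, minus strand), the paralog of Irs1, was at 2.63, 2.55, 2.79 and 2.62 FPKM in HFHG and at 2.63, 2.26, 2.39 and 2.30 FPKM in LG. LG replicate 1 lay among the HFHG values and the other 3 LG libraries lay below them. The log2 fold change of Irs2 was 0.14 (95% interval -0.023 to 0.30, adjusted p = 0.118), and it moved with the scaling, to 0.20 (adjusted p = 0.0425) when rescaled to the same sum and to 0.026 (adjusted p = 0.768) with quantile normalization. Exons of Irs1 and Irs2 share 2822 and 162 bases with genes on the opposite strand (Gm9747 and 9530052E02Rik), which are not among the listed genes, and whether the counting used the strand is not given in the sources used here.

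Both PI3K members were slightly higher in HFHG, though the call of Pik3ca depended on the scaling and on single libraries. Pik3r1 (NCBI gene 18708, chr13:101680563-101768217, minus strand) encodes regulatory subunits, which hold the catalytic subunit and bind phosphorylated IRS. It was at 6.12, 5.64, 6.02 and 6.59 FPKM in HFHG and at 5.19, 5.28, 5.02 and 4.91 FPKM in LG. Every HFHG value lay above every LG value. Pik3r1 rose by 19.0%, a log2 fold change of 0.25 ± 0.059 (SE, adjusted p = 0.00229). Pik3ca (NCBI gene 18706, chr3:32397671-32468486, plus strand), a catalytic subunit, was at 12.4, 12.4, 12.4 and 12.8 FPKM in HFHG and at 11.2, 12.3, 11.8 and 11.2 FPKM in LG. The groups were apart, though the highest LG value, in replicate 2, lay close to the lowest HFHG value. The log2 fold change of Pik3ca was 0.10 ± 0.042 (SE, adjusted p = 0.0428). This call was lost when any 1 library other than LG replicate 2 was left out (adjusted p 0.0179 to 0.113 over the 8 fits) and also with median-ratio scaling (0.068, adjusted p = 0.160), quantile normalization (0.095, adjusted p = 0.0590) and voom (0.062, adjusted p = 0.152).

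The AKT paralogs differed in opposite directions, though the call of Akt2 depended on the scaling. Akt1 (NCBI gene 11651, chr12:112653821-112674884, minus strand), the broadly expressed AKT kinase, was at 114.8, 113.1, 114.7 and 114.1 FPKM in HFHG and at 139.8, 137.4, 134.8 and 139.8 FPKM in LG. All HFHG libraries were below all LG libraries, and the values within a group were close. Akt1 fell by 17.2%, with a log2 fold change of -0.27 ± 0.022 (SE, adjusted p = 2.85e-07). Akt2 (NCBI gene 11652, chr7:27591552-27640826, plus strand), the AKT kinase best known from insulin-stimulated glucose uptake, was at 23.1, 23.3, 23.1 and 23.0 FPKM in HFHG and at 21.4, 21.2, 20.9 and 22.3 FPKM in LG. The HFHG values were again apart from the LG values, now above them. The log2 fold change of Akt2 was 0.11 ± 0.032 (SE, adjusted p = 0.0104), and voom (0.066, adjusted p = 0.0744) and median-ratio scaling (0.071, adjusted p = 0.0751) left it short of the threshold.

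Foxo1 and Foxo3 had the largest differences of the 9 genes. Foxo1 (NCBI gene 56458, chr3:52268336-52353221, plus strand), a transcription factor of gluconeogenic, cell cycle and stress genes, was at 8.87, 8.35, 8.40 and 8.40 FPKM in HFHG and at 4.38, 4.48, 4.27 and 4.17 FPKM in LG. The HFHG values lay far above the LG values, with replicate 1 the highest. The log2 fold change of Foxo1 was 0.96 ± 0.050 (SE, 95% interval 0.85 to 1.07, adjusted p = 3.55e-09), and 5.82% of all tested genes had a larger absolute log2 fold change. An antisense gene, Gm20402, shares 674 exon bases with Foxo1 and is not among the listed genes. Foxo3 (NCBI gene 56484, chr10:42181841-42276755, minus strand), the paralog known from stress resistance and autophagy, was at 14.8, 15.0, 14.4 and 15.2 FPKM in HFHG and at 10.95, 10.4, 10.2 and 10.4 FPKM in LG. Its groups were also well apart. The log2 fold change of Foxo3 was 0.50 ± 0.040 (SE, adjusted p = 2.07e-07), and 22.1% of tested genes had a larger absolute log2 fold change. Foxo1, Foxo3, Pik3r1 and Akt1 kept their direction and their call in all 18 alternatives run for each. Permuting the media over the libraries in all 70 ways (exact permutation test, two-sided) gave the smallest possible p, 0.0286, for Pik3r1, Pik3ca, Akt1, Akt2, Foxo1 and Foxo3, and gave p = 0.8 for Insr, 0.2 for Irs1 and 0.114 for Irs2.

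**Figure D2:**
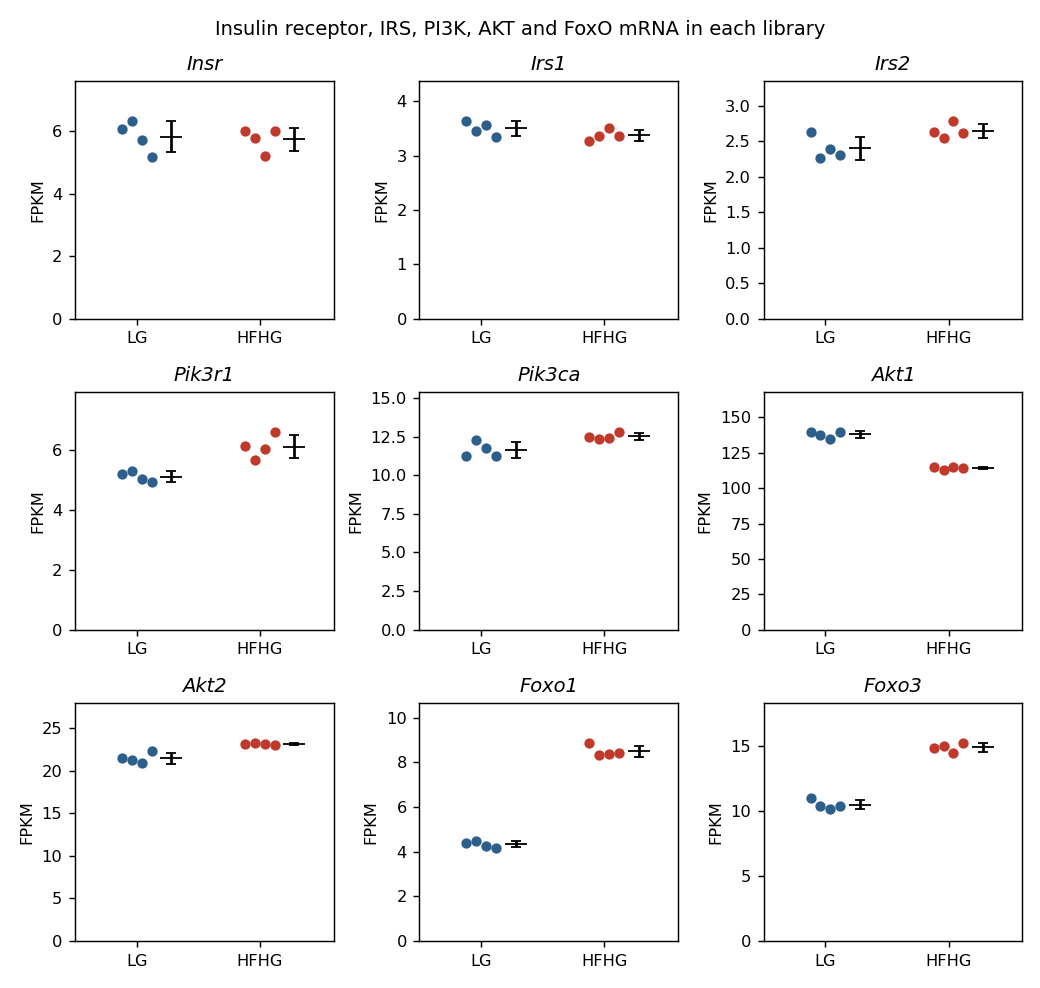
FPKM (vertical axes, each starting at 0) of the 9 genes in the 4 LG and the 4 HFHG libraries, with a point for each library in the order of its replicate number and the mean ± SD beside the points. Foxo1 and Foxo3 are clearly higher and Akt1 is lower in HFHG, while the points of Insr, Irs1 and Irs2 overlap between the media.

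On the FPKM scale, which is per length, Akt1 had the highest level of the 9 genes in both media, followed by Akt2, and Irs2 had the lowest. In LG the order below Akt2 was Pik3ca, Foxo3, Insr, Pik3r1, Foxo1, Irs1 and Irs2. In HFHG it was Foxo3, Pik3ca, Foxo1, Pik3r1, Insr, Irs1 and Irs2. The ranges of neighbours overlapped only for Insr and Pik3r1, in both media. Foxo1 thus stood below Insr and Pik3r1 in LG and above them in HFHG, and Foxo3 and Pik3ca changed places. The order depends on the gene lengths the authors used. The length recovered for Foxo1 was 5552 bases, against 8665 for its GENCODE transcript, and that for Pik3r1 was 11472 against 7113 for the nearest transcript, while that of Foxo3 (6787 against 6848) was close. A change between the media does not depend on the length.

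Because a ratio of 2 genes within a library does not depend on the scaling of that library, 5 ratios of related genes were compared with exact two-sided permutation tests, adjusted over the 5. The ratio of Akt2 to Akt1 was 0.203 ± 0.00209 in HFHG and 0.155 ± 0.00275 in LG (mean ± SD, n = 4), a log2 difference of 0.38 (exact permutation p = 0.0286, adjusted p = 0.0476). It was higher in 4 of 4 HFHG libraries than in any LG library. The ratio of Foxo3 to Foxo1 was lower in HFHG, at 1.75 ± 0.0654 against 2.42 ± 0.0887, so Foxo1 rose more than Foxo3, by a log2 difference of -0.47 (exact permutation p = 0.0286, adjusted p = 0.0476). Irs2 to Irs1 was 0.804, 0.759, 0.794 and 0.779 in HFHG and 0.723, 0.654, 0.670 and 0.690 in LG, without overlap. Its log2 difference was 0.20 (exact permutation p = 0.0286, adjusted p = 0.0476), although neither gene passed alone. An exact permutation p of 0.0286 is the smallest possible here. The adjusted p of 0.0476 was below 0.05 only because 3 of the 5 ratios reached that smallest p, so the pass of each depends on the others. Pik3r1 to Pik3ca was 0.487 ± 0.0240 and 0.439 ± 0.0158, a log2 difference of 0.15 that missed the threshold (exact permutation p = 0.0571, adjusted p = 0.0714). Insr relative to Igf1r, the receptor of insulin-like growth factor, was 0.476 ± 0.0394 and 0.489 ± 0.0315 and overlapped between the media (log2 difference -0.039, exact permutation p = 0.629). With 3 libraries in a group the adjusted p of the 3 ratios that passed is above the threshold by construction.

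**Figure D3:**
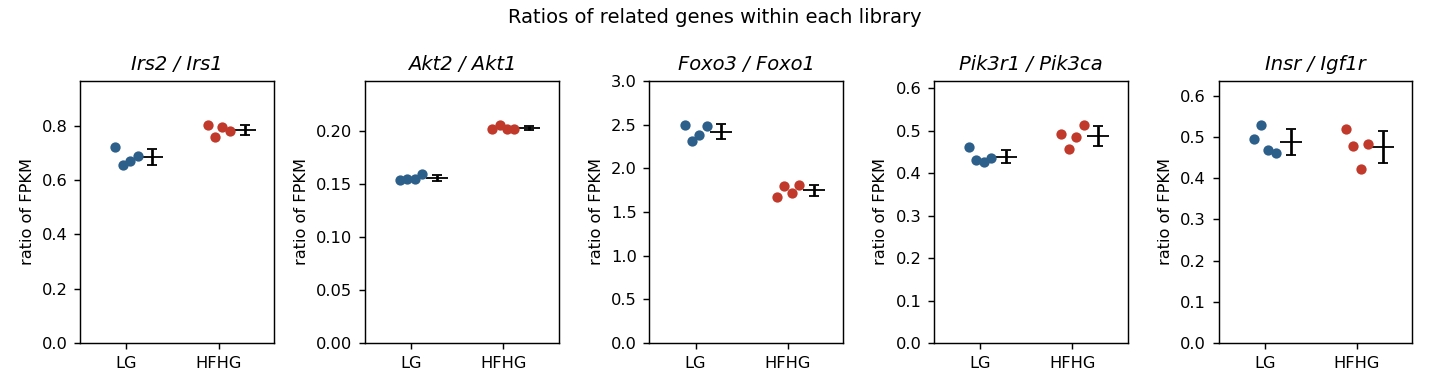
FPKM ratios of 5 pairs of genes (vertical axes, starting at 0) in the 4 LG and the 4 HFHG libraries, with a point for each library and the mean ± SD beside the points. Irs2 to Irs1 and Akt2 to Akt1 are higher and Foxo3 to Foxo1 is lower in every HFHG library, Pik3r1 to Pik3ca touches at its edges, and Insr to Igf1r overlaps.

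Levels were also summed over family members, using further genes chosen after their values were seen and with no test. Foxo1, Foxo3 and Foxo4 together were at 32.8 ± 0.356 FPKM in HFHG and 21.1 ± 0.475 FPKM in LG, and Foxo1 made up 25.9% and 20.5% of the sum. These sums and shares depend on the gene lengths used, which for Foxo1 was 5552 bases against 8665 for its GENCODE transcript. Foxo4, the third FoxO factor above the filter, was at 9.41 ± 0.164 and 6.28 ± 0.152 FPKM (log2 fold change 0.58, adjusted p = 1.37e-07). The regulatory subunits Pik3r1, Pik3r2 and Pik3r3 summed to 38.6 to 40.5 FPKM in HFHG and 37.8 to 38.5 FPKM in LG, and the catalytic subunits Pik3ca, Pik3cb and Pik3cd to 20.5 to 22.1 and 17.8 to 18.9 FPKM.

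Other genes of the pathway were grouped in 7 lists by role, read against the 3983 higher and 3609 lower genes among 11710 tested, whose median log2 fold change was 0.017. Of 17 tested receptors and adaptors, 10 were higher and 2 lower in HFHG (median 0.13). They included the docking protein Gab1 (log2 fold change 0.83, adjusted p = 1.47e-05) and the receptor-binding adaptor Sh2b2 (-0.50, adjusted p = 4.54e-05). Of 11 other PI3K genes, 6 were higher and 0 lower (median 0.29). They were led by Pik3ip1, an inhibitor of PI3K (1.15, adjusted p = 1.19e-06), with Pik3r3 (0.93, adjusted p = 4.21e-07) and Pik3r5 (0.50, adjusted p = 0.000142). Of 11 phosphatases that act on PI3K lipids or on AKT, 6 were higher and 0 lower (median 0.30). They included Ppp2r5b, a regulatory subunit of a phosphatase that acts on AKT (0.49, adjusted p = 7.24e-07), and Inpp4a, a phosphatase of PI3K lipids (0.40, adjusted p = 0.000537). By limma at an unadjusted p below 0.05, 0 genes of either list were lower as well, and with median-ratio scaling or voom 1 gene of each list was called lower.

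Of 23 kinases upstream of AKT and targets of AKT, 7 were higher and 7 lower (30.4% each, median 0.0058). Of all tested genes, 34% were higher and 30.8% were lower. The translation repressor Eif4ebp1 fell from 201.3 ± 11.8 FPKM in LG to 128.8 ± 4.54 in HFHG (-0.64, adjusted p = 1.85e-08). Rps6kb2, a kinase of ribosomal protein S6 (0.47), and Rictor, a subunit of the complex that phosphorylates AKT (0.46), were higher. Of 19 inhibitors of insulin signaling, 7 were higher and 7 lower (36.8% each, median 0.013). Grb14, an adaptor that binds the activated insulin receptor and blocks its kinase, was at 53.6 ± 0.782 FPKM in HFHG and 13.9 ± 0.824 in LG, a log2 fold change of 1.94 (adjusted p = 1.09e-12). Its level was thus above that of Insr itself on the FPKM scale in both media. Trib3, a pseudokinase reported to bind AKT, went the other way, from 73.0 ± 3.44 FPKM in LG to 20.7 ± 1.26 in HFHG (-1.81, adjusted p = 5.63e-12), while its relative Trib2 rose (0.89, adjusted p = 1.85e-09).

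Of 21 other FoxO factors and FoxO regulators, 3 were higher and 7 lower (median -0.013). Sgk1, a kinase that phosphorylates FoxO at sites shared with AKT, was at 57.4 ± 0.893 FPKM in HFHG and 31.2 ± 1.16 in LG (0.88, adjusted p = 1.37e-10). The deacetylase Sirt2 (-0.59, adjusted p = 4.74e-09) and Ywhag, an adaptor that binds phosphorylated proteins (-0.58, adjusted p = 1.11e-10), were lower. Of 28 tested genes reported elsewhere as FoxO targets, 17 were higher and 8 lower (60.7% and 28.6%, median 0.23), and 4 rose and 1 fell by more than 2-fold. Among all tested genes 34% were higher and 30.8% lower, and 3.68% rose and 1.65% fell by more than 2-fold. Txnip, an inhibitor of thioredoxin and of glucose uptake (5.97, adjusted p = 9.22e-16), and Pdk4, a kinase that restrains pyruvate oxidation (4.65, adjusted p = 2.25e-14), rose most, and the transcription factor Klf15 fell (-2.16, adjusted p = 3.2e-09). Whether FoxO factors had a part in any of these changes was not tested, and the media differed in glucose and in palmitic acid. Pck1, G6pc and Igfbp1, targets in liver, were below the filter in these cells, as was Slc2a4, the insulin-sensitive glucose transporter of muscle and fat, at 0.0733 ± 0.0465 FPKM in HFHG and 0.0664 ± 0.0483 in LG.

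**Figure D4:**
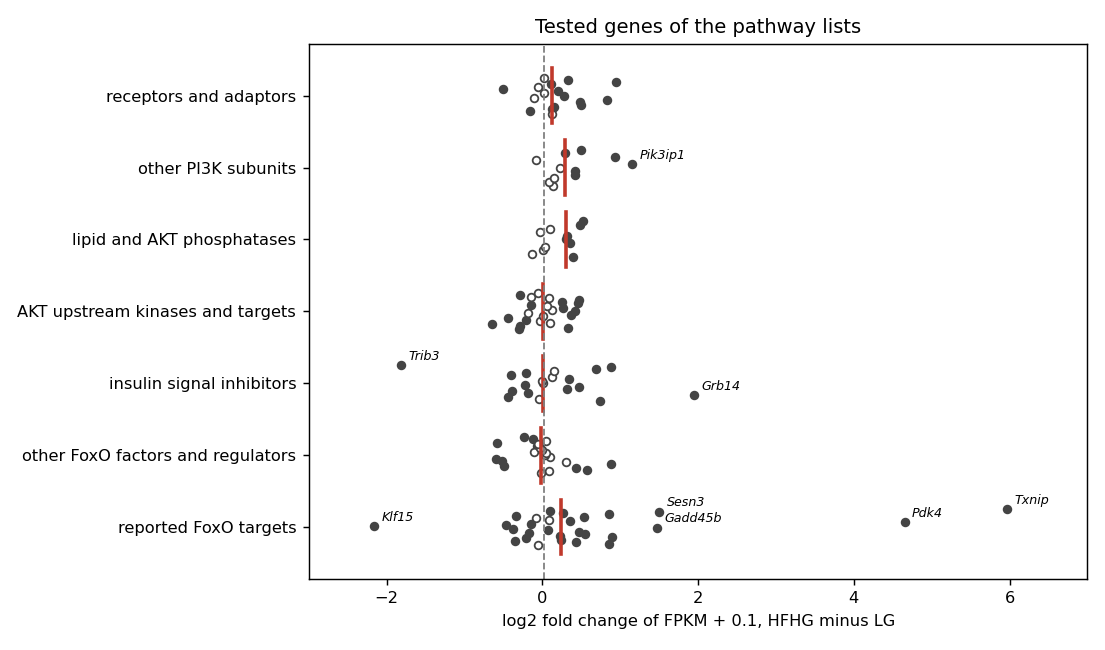
Log2 fold change of FPKM + 0.1 (HFHG minus LG, horizontal axis) of the tested genes in 7 lists of the insulin pathway, with a point for each gene, filled at an adjusted p-value below 0.05, a red bar at the median of a list and a dashed line at the median of all tested genes. The medians of the PI3K genes and the phosphatases (0.29 and 0.30) lie right of that line, and Txnip, Pdk4, Grb14, Trib3 and Klf15 lie far from the other genes.

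The deposited table also assigns genes to KEGG pathways. Without the members, 48 of 106 tested genes of the KEGG insulin signaling pathway were higher and 35 lower (median 0.11). For the FoxO signaling pathway 47 of 98 were higher and 27 lower (median 0.076), and for insulin resistance 37 of 76 were higher and 21 lower (median 0.083). The PI3K-Akt pathway had 104 higher and 77 lower of 236 (median 0.077), and the mTOR pathway 46 higher and 44 lower of 119 (median 0.021). Of all tested genes, 34% were higher and 30.8% lower (median 0.017). These pathways share genes, and no test was made of a list against the other genes.

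The genes whose level followed Foxo1 most closely across the 8 libraries were Selenop (Pearson r of log2(FPKM + 0.1) = 0.9995), Smarca2 (0.9995) and Fkbp9 (0.9994). They were at 111.5 ± 2.82, 7.78 ± 0.171 and 173.6 ± 2.50 FPKM in HFHG and at 52.7 ± 1.41, 4.37 ± 0.136 and 110.2 ± 1.38 FPKM in LG. The 8 libraries form 2 separate groups and all points share the difference in medium, and 802 tested genes had an r of at least 0.98.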

How the data were processed

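mRNA of 8 TSC libraries, 4 in HFHG and 4 in LG medium, was sequenced with a stranded kit, and groups and replicate numbers were read from the sample titles. The authors deposited FPKM for 19301 genes per library, without pooling. The submitters' processing notes name HISAT2 2.1.0 and mm10, while the counting program, the annotation, the use of strand and the treatment of reads shared by similar genes are not given in the sources used here. FPKM are relative to the library total, so abundant genes shift the others.

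Genes with at least 0.5 FPKM in at least 4 of the 8 libraries (11710) were compared with limma 3.58.1 in R 4.3.3 (lmFit and eBayes with a trend) on log2(FPKM + 0.1), with no covariates and Benjamini-Hochberg adjustment over all tested genes. P-values measure the spread between these 8 samples. Reads were recovered as whole multiples of the FPKM step (tolerance 0.001) and served for depth and for voom. Ratios and single genes were compared by exact permutation in Python 3.11.15 with SciPy 1.17.1. Gene positions are from GENCODE on GRCm38, and pathway membership is from the KEGG column of the deposited table.

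The members, the lists and the tests were chosen with earlier results of these data known. Named genes are the 9 members, up to 3 called genes of each list with the largest absolute log2 fold change, and the 3 tested genes most like the member with the largest change, and some genes that this rule names are not reported here. Genes outside this rule (Foxo4, Pik3r2, Pik3cb, Pik3cd, Slc2a4, Pck1, G6pc and Igfbp1) were chosen after their values were seen. Ctgf was not found under that symbol. Alternatives were other pseudocounts, filters and scalings, a replicate block, robust eBayes, voom and each library left out. Scripts were tested on simulated data. Member proteins were not analysed here.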

Additional observations from a re-analysis of the deposited data

Results flagged for a closer look

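The highest or lowest library of a group of 4 stood apart from the other 3 by Dixon's test at the 95% level in 6 of 70 groups examined, and chance flags about 1 in 20 groups. For Foxo1, HFHG replicate 1 was highest, at 8.87 FPKM, and the other 3 HFHG libraries lay at or below 8.40 FPKM. HFHG replicate 1 was also the highest for Txnip, at 192.8 FPKM. The Akt2 to Akt1 ratio was highest in HFHG replicate 2, at 0.206. The phosphatase subunit Ppp2r5b was lowest in HFHG replicate 4, at 26.9 FPKM. LG replicate 2 was the highest for both Inpp4a, at 2.17 FPKM, and Pik3r3, at 2.55 FPKM. The Foxo1 call and its direction held without any 1 library (log2 fold change 0.94 to 0.98).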

How the results depend on the processing

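Of the 9 genes, Foxo1, Foxo3, Pik3r1 and Akt1 kept direction and call in all 18 alternatives. Of 810 values of the other named genes and list counts, 6 moved, each a count of lower PI3K genes or phosphatases that went from 0 to 1. A gene was taken as unmoved if its direction and call held, whatever its size. A list count was taken as unmoved if it changed within a set factor, so unmoved counts were not always equal. Median-ratio scaling and voom gave 3 member genes higher, quantile normalization gave 2 lower and rescaling to the same sum gave 1 past 2-fold. Rescaling to the same sum turned Insr to 0.040 and Irs1 to 0.0058 and brought Irs2 past the threshold (0.20, adjusted p = 0.0425). Quantile normalization lowered Irs2 to 0.026 (adjusted p = 0.768) and brought Irs1 past the threshold (-0.14, adjusted p = 0.0466). Pik3ca missed the threshold with median-ratio scaling (0.068), quantile normalization (0.095) and voom (0.062), and Akt2 with median-ratio scaling (0.071) and voom (0.066). The median of all genes, 0.017, moved to between -0.025 and 0.075 under these scalings. Same-numbered libraries did not deviate together (r -0.074 to -0.0056). A low r cannot exclude a shared source with a small effect, and whether the numbers pair samples is not given in the sources used here. With the replicate block Pik3ca missed the threshold (0.10, adjusted p = 0.0864), and the ratios Irs2 to Irs1 (0.20), Akt2 to Akt1 (0.38) and Foxo3 to Foxo1 (-0.47) had an adjusted p of 0.156, since 4 pairs cannot give a p below 0.125. No other member call changed with the block. Leaving out each library in turn gave 4 to 5 genes higher and 1 lower, Pik3ca at 0.088 to 0.13 (not called without any library but LG replicate 2) and Insr at -0.073 to 0.027 (above 0 without HFHG replicate 3, LG replicate 1 or LG replicate 2). The ratios ranged from 0.18 to 0.22 for Irs2 to Irs1, 0.37 to 0.39 for Akt2 to Akt1, -0.49 to -0.45 for Foxo3 to Foxo1 and -0.082 to 0.015 for Insr to Igf1r, the last above 0 without HFHG replicate 3 or LG replicate 2. With 3 against 4 libraries these ratios cannot pass, by construction. The 4 libraries a group and the 557 to 682 reads of Irs2 limit what can be seen for small differences.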
